A study of Rattus norvegicus with 18 samples.

Results

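Receptors for the neurotrophins and the gene for neurotrophin-3 were followed in cervical dorsal root ganglia (DRG) of rats with a spinal pathway injury. The genes were Ntrk2, Ntrk3, Ngfr, Sort1 and Ntf3, taken by their RefSeq symbols. These 5 symbols had 11 identifiers in the counts, of which 4 had reads and stood among the 15075 identifiers of the count table for all rats. The 4 were Ntrk2 NM_001163168, Ntrk2 NM_012731, Ngfr NM_012610 and Sort1 NM_031767, so that 3 of the 5 genes could be compared.

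Neurotrophins are secreted proteins that keep sensory neurons alive in development and tune their sensitivity and connections in the adult. Each binds a receptor tyrosine kinase with high affinity. BDNF and NT-4 bind TrkB (Ntrk2), and NT3, encoded by Ntf3, binds TrkC (Ntrk3), the receptor that marks most proprioceptive neurons of the DRG. All of them also bind p75NTR (Ngfr), a member of the tumour necrosis factor receptor family that works with Trk receptors in neurons and is also made by glia. Sortilin (Sort1) sorts neurotrophins and their receptors inside cells and binds proneurotrophins together with p75NTR. In muscle nerves, NT3 is made by muscle and spindle fibres and taken up by the sensory endings.

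Poly(A) RNA was sequenced from 18 adult Lister hooded rats, with 6 rats per group. The 6 naïve rats (rats 41, 42, 43, 44, 45 and 49) were unoperated and received no vector. The 6 bPYX+GFP rats (rats 5, 15, 18, 21, 52 and 57) had a bilateral pyramidotomy, which cuts both corticospinal tracts in the medulla, followed by injection of AAV1-CMV-EGFP into the forelimb flexors of one side. The 6 bPYX+NT3 rats (rats 2, 11, 17, 23, 39 and 40) had the same injury and received AAV1-CMV-NT3, which encodes human NT3. The CMV promoter is not restricted to one cell type, and the NT3 and GFP groups share the injury and the viral vector. Injury and vector therefore cannot be told apart between bPYX+GFP and naïve rats. The DRG of segments C6 to C8 were pooled for each rat, and ganglia of different rats were not pooled. In the injured groups the ganglia came from the treated side, 10 weeks after injury. The labels give no time for the naïve rats, which had no injury and no treated side.

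Library totals ranged from 10057787 to 16002410 reads on identifiers per rat, and 30.8% to 34.6% of the read-pairs in the counts lay on no annotated feature. For 17 of 18 rats, the file of that rat is attached to a title of another group. The rats were grouped by the heading of the count table, whose columns were identical to the rats' own files in 18 of 18 rats and whose groups match the study's supplement in 18 of 18. Reads of 10 of 10 neuron markers, 8 of 8 Schwann cell markers and 5 of 5 satellite glia markers were found, and 3 skeletal muscle markers with reads summed to 93.7 normalised reads or fewer in each rat. Rats 57 (bPYX+GFP) and 11 (bPYX+NT3) stood apart, with the lowest shares of reads on no feature (31.7% and 30.8%) and the highest neuron marker means. Results that rest on them are given with and without them. In whole ganglia, fewer cells of a type and less RNA per cell cannot be told apart.

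Ntrk3 and Ntf3 could not be compared. All 3 identifiers of Ntrk3 (NM_001270655, NM_001270656 and NM_019248) and all 4 identifiers of Ntf3 (NM_001270868, NM_001270869, NM_001270870 and NM_031073) were at 0 in 18 of 18 rats. Reads that lay on more than 1 identifier were set aside as ambiguous by the counting and made up 2.79% to 3.41% of the read-pairs per rat. An identifier whose sequence is shared with other identifiers of its gene thus gets a count only from reads that lie on it alone. Among genes with 1 identifier, 1568 of 15218 identifiers were at 0 in all rats (10.3%). Where a gene had 2 identifiers, 284 of 656 were at 0 (43.3%), and where it had 3 or more, 464 of 629 (73.8%). Of the 156 genes with 3 or more identifiers, 63 had every identifier at 0 (40.4%), as Ntrk3 and Ntf3 did. These 0 values therefore say nothing about how much Ntrk3 or Ntf3 RNA the ganglia held, and whether their reads lay in the ambiguous class was not tested. The human NT3 of the vector was not looked for, as its sequence is no rat identifier.

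**Figure D1:**
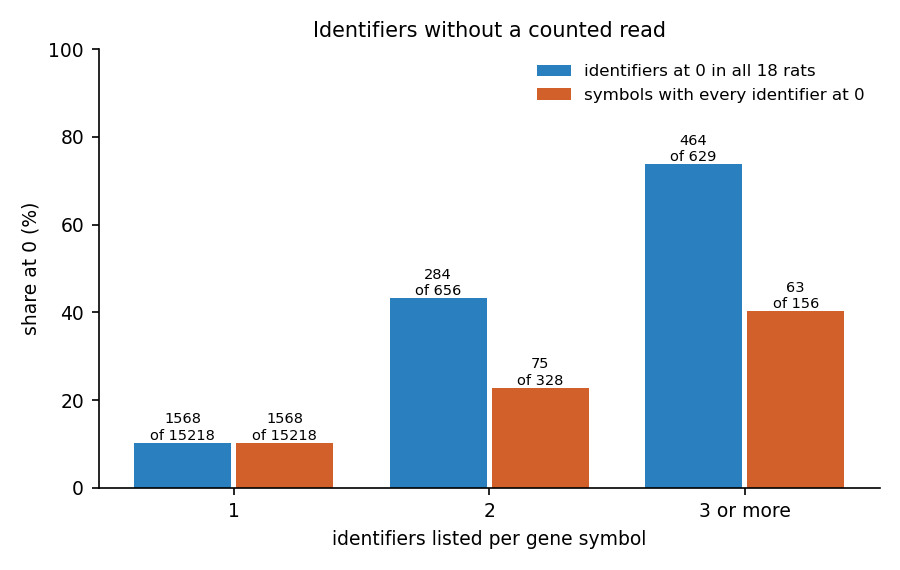
Share of RefSeq identifiers without a counted read in any of 18 rats (blue) and of gene symbols with every identifier at 0 (orange), in %, against the number of identifiers listed per symbol. The share of identifiers rises from 10.3% with 1 identifier to 73.8% with 3 or more, the class of Ntrk3 and Ntf3.

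Ngfr was the 1 receptor with a call. Its reads were 26.8% higher in bPYX+NT3 than in naïve rats, with an unadjusted p of 0.0243 in edgeR's quasi-likelihood test and 0.0693 in the exact permutation test. The difference did not pass the adjustment over all identifiers, and the call was lost without any 1 of 5 rats. In naïve rats, normalised read counts of Ngfr, which are scaled to one library size, were 4598 in rat 41, 4406 in rat 42, 4493 in rat 43, 3325 in rat 44, 3484 in rat 45 and 3285 in rat 49. In bPYX+GFP rats they were 4236 in rat 5, 3769.7 in rat 15, 3479.9 in rat 18, 3775 in rat 21, 3680 in rat 52 and 5872 in rat 57. In bPYX+NT3 rats they were 5592 in rat 2, 6923 in rat 11, 4347 in rat 17, 4094 in rat 23, 4472 in rat 39 and 4461 in rat 40. The naïve rats fell into 3 higher and 3 lower values, 1 bPYX+GFP rat lay above all naïve rats, and rats 2 and 11 lay above the other 4 bPYX+NT3 rats. The groups overlapped in all 3 comparisons.

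**Figure D2:**
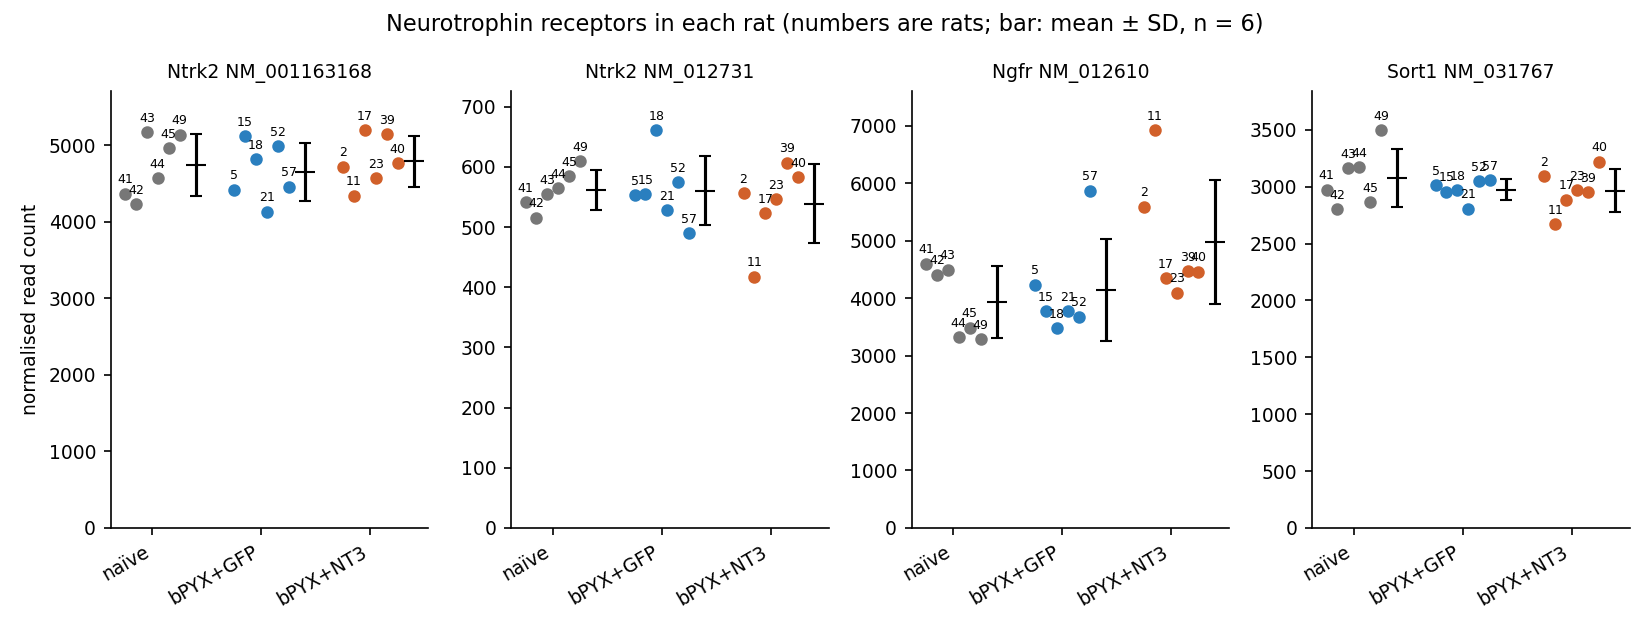
Normalised read counts (linear axes from 0) of the 4 counted identifiers in each of 18 rats, with rat numbers at the points and the group mean ± SD (n = 6) as a bar. Ngfr spreads most, with rat 11 at 6923 and rat 57 at 5872, while the groups overlap in every panel.

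The mean of Ngfr was 3932 ± 628 in naïve rats, 4136 ± 886 under bPYX+GFP and 4981 ± 1083 under bPYX+NT3 (SD, n = 6 each). By the median the order of the lower 2 groups was the opposite, with 3773 in bPYX+GFP, 3945 in naïve and 4466 in bPYX+NT3 rats. Between bPYX+NT3 and naïve rats the log2 fold change was 0.34 (SE 0.135, 95% interval 0.05 to 0.63), with an edgeR adjusted p of 0.607 over all 11693 identifiers. All 6 bPYX+NT3 rats lay above the naïve median. The exact permutation test was two-sided, and the smallest p that it allows with 6 against 6 rats is 0.00216. With the rats grouped by the titles attached to their own files, the direction turned, to -0.23 (edgeR, adjusted p = 0.837). That grouping departs from the study's supplement for 17 of 18 rats. Of all identifiers tested in this comparison 6.01% had an unadjusted p under 0.05, 3.09% with higher reads in bPYX+NT3 rats, and by p Ngfr ranked 292 of 11693. The 1 call among 4 identifiers thus stands beside 703 called of 11693, of which 0 passed the adjustment in edgeR and 0 in DESeq2.

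Neither of the other comparisons called Ngfr. Between bPYX+NT3 and bPYX+GFP rats, which share the injury, its log2 fold change was 0.27 (SE 0.157, interval -0.071 to 0.60, edgeR p = 0.112, exact permutation p = 0.132, adjusted p = 0.851). Each of the 6 bPYX+NT3 values exceeded the median of bPYX+GFP rats. In that comparison 1.73% of all identifiers were called, 1.08% as higher in bPYX+NT3 rats. Between bPYX+GFP and naïve rats the log2 fold change was 0.083 (SE 0.137, interval -0.21 to 0.38, edgeR p = 0.556, exact permutation p = 0.686, adjusted p = 0.9998), where 3.25% of all identifiers were called. This interval still holds the 0.34 seen in bPYX+NT3 rats, with a coefficient of variation between rats of 16.0% in naïve and 21.4% in bPYX+GFP rats.

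Single rats moved these values. In the comparison of bPYX+NT3 with naïve rats, leaving out rat 11 lowered the log2 fold change to 0.23 and ended the call. Leaving out any of rats 44, 45, 49 and 2 gave between 0.30 and 0.32 and also ended it. The call held without each of the other 7 rats. All identifiers called in this comparison numbered 703 of 11693 with all rats and 365 of 11636 without rat 11. Without rats 44, 45, 49 and 2 they numbered 399, 401, 395 and 433. Without rats 41, 42, 43, 17, 23, 39 and 40 they numbered 1185, 1032, 637, 855, 1387, 1024 and 657. Between the injured groups, leaving out rat 57 raised the value to 0.39, which was then called (edgeR, adjusted p = 0.251), beside 2291 of 11556 identifiers called in that fit and 201 of 11623 with all rats. Leaving out rat 11 lowered it to 0.14. Without both rats the difference was 0.28 and was called (edgeR, adjusted p = 0.385), beside 1462 of 11477 identifiers. Between bPYX+GFP and naïve rats the direction turned without rat 57, to -0.053 (edgeR, adjusted p = 0.940).

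**Figure D3:**
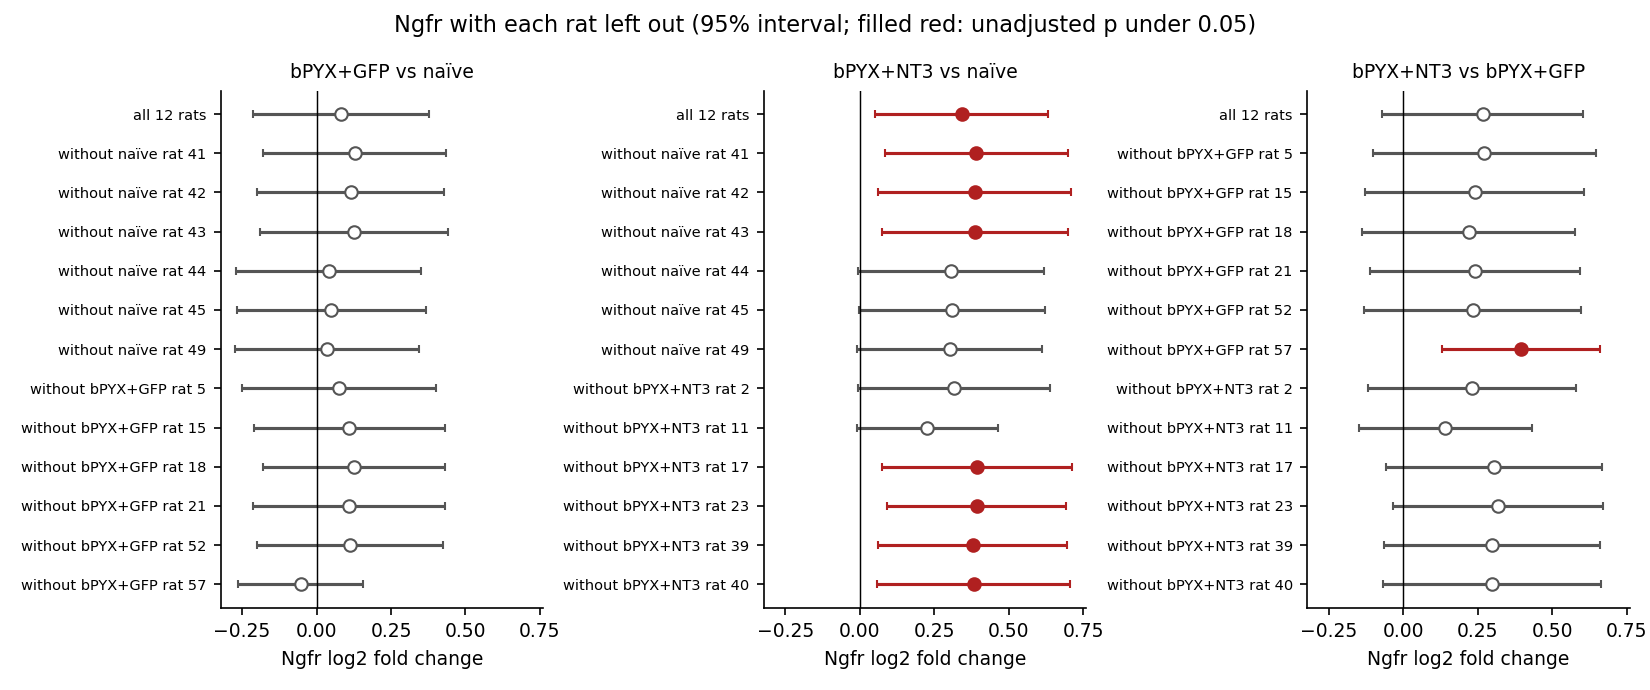
Log2 fold change of Ngfr with its 95% interval for all 12 rats of each comparison and with each rat left out, filled red where the unadjusted p was under 0.05. Against naïve rats the bPYX+NT3 value stays between 0.23 and 0.39, and between the injured groups the call appears when rat 57 is left out.

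Ngfr varied from rat to rat together with a large part of the measured genes. Over 18 rats, its log2 CPM (the count scaled to library size, on a log2 scale) correlated with the mean of 9 neuron markers at Pearson's r = 0.933 and Spearman's rho = 0.915 (permutation p = 1e-05 each, the smallest these resamples give, adjusted p = 9e-05 over 18 relations). Without rats 57 and 11, r was 0.855, and with each value centred on its group mean 0.957. Within groups r was 0.920 in naïve rats, 0.989 under bPYX+GFP and 0.961 under bPYX+NT3, 6 rats each. With the share of reads on no feature, Ngfr correlated at r = -0.912 (rho = -0.882, adjusted permutation p = 9e-05), and at -0.791 without the same rats. With the mean of 8 Schwann cell markers, r was 0.478 (adjusted permutation p = 0.101). Centred on group means it was 0.664 (adjusted permutation p = 0.0066). Without rats 41 and 15, the farthest out on that mean, r was 0.468 (adjusted permutation p = 0.153). The 3 naïve rats with the lower Ngfr values, rats 44, 45 and 49, had the lowest neuron marker means of all rats.

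The neuron marker list did not move as one. Over 18 rats, the correlation with Ngfr was 0.964 for Prph (peripherin, an intermediate filament of small and regenerating sensory neurons), 0.939 for Tubb3, 0.898 for Uchl1, 0.883 for Rbfox3 and 0.862 for Nefh, the heavy neurofilament chain. It was 0.404 for Stmn2, -0.192 for Nefl, -0.531 for Nefm and -0.656 for Elavl4, which are neuron markers too. Glial markers also went both ways, with 0.791 for Sox10 among Schwann cell markers and -0.917 for Cdh19 among those of satellite glia. The 18 points share library, depth and normalisation, and these values describe how the genes varied together.

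**Figure D4:**
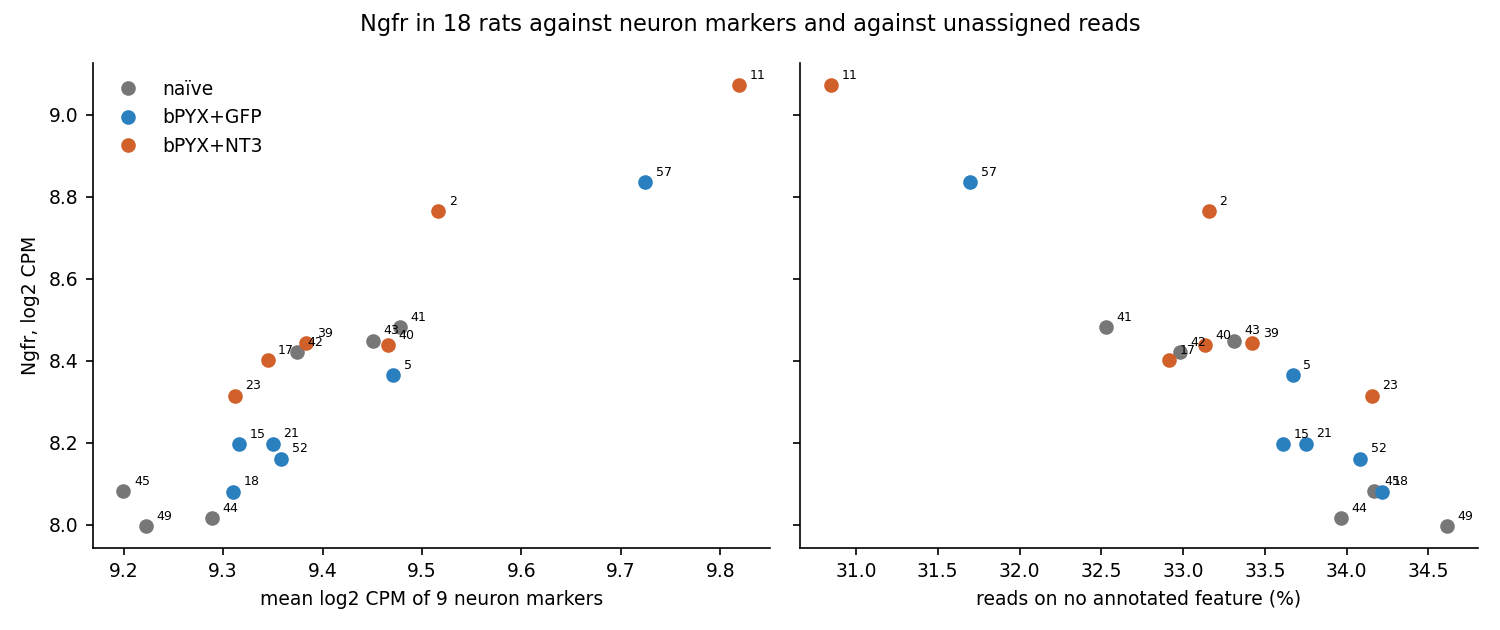
Ngfr (log2 CPM) in 18 rats against the mean log2 CPM of 9 neuron markers (left) and against the share of reads on no annotated feature in % (right), coloured by group and numbered by rat. The relation runs through all 3 groups, with r = 0.933 on the left and r = -0.912 on the right, and rats 11 and 57 lie at its end.

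Differences between the groups in these measures lay within the spread of the rats. The mean of the neuron markers was 9.34 ± 0.117 in naïve rats, 9.42 ± 0.159 under bPYX+GFP and 9.47 ± 0.186 under bPYX+NT3 (log2 CPM, SD, n = 6). Of the 9 neuron markers tested, 0 were called in any comparison, and their median log2 fold change was 0.10, 0.18 and 0.076 in bPYX+GFP against naïve, bPYX+NT3 against naïve and bPYX+NT3 against bPYX+GFP rats. The share of reads on no feature was lower by 0.656 percentage points in bPYX+NT3 than in naïve rats (exact two-sided permutation p = 0.288). With that share as a covariate, Ngfr was called in bPYX+NT3 against naïve rats, at 0.18 on the log2 scale (SE 0.0679, edgeR, adjusted p = 0.999). In that fit 481 of 11693 identifiers were called, beside 703 without the covariate. Ngfr was not called against bPYX+GFP rats, at 0.12 (SE 0.0663), where 225 of 11623 identifiers were called with the covariate.

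Some markers of other cells were called between the groups. Of all identifiers tested, 292 of 11601 were called lower in bPYX+GFP and 342 of 11693 in bPYX+NT3 than in naïve rats. Between the injured groups, 76 of 11623 were called lower and 125 higher in bPYX+NT3 rats. Of 8 Schwann cell markers, 2 were called lower than in naïve rats in each injured group, with medians of -0.30 under bPYX+GFP and -0.15 under bPYX+NT3 on the log2 scale. Of 5 fibroblast markers, 3 were lower in each, with medians of -0.23 and -0.28. Both adipocyte markers tested, of 3 with reads, were lower in bPYX+NT3 than in bPYX+GFP rats, with Adipoq at a log2 fold change of -2.11 and Fabp4 at -2.05. The sum of Adipoq, Fabp4 and Cfd ranged from 25.4 to 638 normalised reads in naïve rats, 37.1 to 1018 under bPYX+GFP and 27.2 to 179 under bPYX+NT3, and Plin1, one of their defining markers, had no counts. Of 4 satellite glia markers tested, 1 was higher in bPYX+NT3 than in bPYX+GFP rats. None of 5 macrophage, 5 endothelial and 3 proprioceptor and large-fibre markers was called. Of 2 markers of spinal cord glia 1 was lower in bPYX+NT3 than in naïve rats, and the 1 skeletal muscle marker tested was not called. The part of these cells in the Ngfr result was not tested.

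Among the genes most like Ngfr over the 18 rats were Ggt7 (r = 0.979) and Adora1 (r = 0.973). Such a likeness was common, as 988 of 11543 identifiers had an r above 0.9 with Ngfr.

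Ntrk2, the TrkB receptor for BDNF and NT-4, was counted under 2 identifiers, and neither was called in any comparison. The counts hold only reads that lie on 1 of them alone, and which protein form each encodes was not given in the sources used here. NM_001163168 had 4367, 4227, 5172, 4568, 4960.2 and 5137 normalised reads in naïve rats 41, 42, 43, 44, 45 and 49. The bPYX+GFP rats 5, 15, 18, 21, 52 and 57 had 4422, 5117, 4819, 4134, 4990.4 and 4459. The bPYX+NT3 rats 2, 11, 17, 23, 39 and 40 had 4722, 4340.3, 5196, 4568, 5148 and 4768. Every group held both low and high values, and the group means lay between 4657 and 4791. The log2 fold change was -0.019 in bPYX+GFP against naïve (interval -0.17 to 0.13), 0.018 in bPYX+NT3 against naïve (-0.13 to 0.16) and 0.038 in bPYX+NT3 against bPYX+GFP rats (-0.097 to 0.17). The edgeR p was 0.789, 0.799 and 0.553, and the exact permutation p 0.708, 0.810 and 0.511. The widest bounds of these intervals were 12.8% and -11.0%.

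The second Ntrk2 identifier, NM_012731, had fewer reads, 9873 over all rats beside 84782 on the first. In naïve rats 41, 42, 43, 44, 45 and 49 its normalised counts were 542, 516, 554, 564, 584 and 609. In bPYX+GFP rats 5, 15, 18, 21, 52 and 57 they were 553, 555, 661, 528, 575 and 489.7. In bPYX+NT3 rats 2, 11, 17, 23, 39 and 40 they were 557, 417, 523, 546, 607 and 583. The lowest value belonged to rat 11 and the lowest of the bPYX+GFP group to rat 57, the rats with the highest Ngfr, and the groups overlapped. The log2 fold change was 0.0012 in bPYX+GFP against naïve (interval -0.15 to 0.15), -0.058 in bPYX+NT3 against naïve (-0.24 to 0.12) and -0.058 in bPYX+NT3 against bPYX+GFP rats (-0.25 to 0.14). The edgeR p was 0.987, 0.503 and 0.534, and the exact permutation p 0.924, 0.541 and 0.571. Of the reads on both identifiers, 10.6 ± 0.503% lay on NM_012731 in naïve rats, 10.8 ± 0.897% under bPYX+GFP and 10.1 ± 0.897% under bPYX+NT3 (SD, n = 6). The share was lower by 0.652 percentage points in bPYX+NT3 than in bPYX+GFP rats (exact two-sided permutation p = 0.234), which did not exceed the spread between rats. With the reads of both identifiers summed, the log2 fold changes of Ntrk2 lay between -0.017 and 0.028.

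Sort1, the sortilin gene, was not called in any comparison. The naïve rats 41, 42, 43, 44, 45 and 49 had 2975, 2802, 3162, 3171, 2861 and 3496 normalised reads. The bPYX+GFP rats 5, 15, 18, 21, 52 and 57 had 3015, 2957, 2969, 2805, 3047 and 3056, the narrowest of its 3 ranges. The bPYX+NT3 rats 2, 11, 17, 23, 39 and 40 had 3092, 2669, 2886, 2969.9, 2950.1 and 3221. Means were 3078 ± 255 in naïve rats, 2975 ± 92.3 under bPYX+GFP and 2965 ± 187 under bPYX+NT3, and the 3 ranges overlapped. Between the injured groups the log2 fold change was -0.0078 (interval -0.12 to 0.10, edgeR p = 0.881, exact permutation p = 0.881), and the interval reaches from -7.89% to 7.39%. It was -0.042 in bPYX+GFP against naïve (-0.17 to 0.083, edgeR p = 0.483) and -0.052 in bPYX+NT3 against naïve rats (-0.19 to 0.086, edgeR p = 0.430), with an exact permutation p of 0.420 in both. Each of the 6 bPYX+GFP values was under the median of the naïve rats.

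The counted receptors varied in different directions from rat to rat. Ngfr and NM_012731 of Ntrk2 went in opposite directions (r = -0.745, rho = -0.595, adjusted permutation p = 0.00257 over 18 relations), and within each group r lay between -0.799 and -0.765. Without rats 18 and 11 the relation weakened to r = -0.524 with an adjusted permutation p of 0.133, with its direction kept, while it was -0.754 with each value centred on its group mean. NM_012731 rose with the share of reads on no feature (r = 0.835), where Ngfr fell with it, and fell with the neuron markers (r = -0.745). Without rats 57 and 11 these values were 0.562 and -0.307, with adjusted permutation p of 0.133 and 0.374. Among the 6 naïve rats alone they were 0.882 and -0.727, and centred on group means 0.827 and -0.746. The identifiers of Ntrk2 correlated with each other at r = 0.528 (adjusted permutation p = 0.0579), and at 0.576 after centring on group means (adjusted permutation p = 0.0249). Sort1 and NM_012731 correlated at r = 0.549 (adjusted permutation p = 0.0591), and at 0.542 after centring (adjusted permutation p = 0.0472). No other relation of Sort1 or NM_001163168 passed the adjustment with or without centring. Closest to Sort1 were Wdfy2 (r = 0.815), Tmtc2 (0.813) and Mipep (0.808). For NM_012731 these were Lgi1 (0.908), Kif5b (0.906) and Zfyve9 (0.906), and for NM_001163168 Cyp51 (0.773), Mboat2 (0.773) and Gpsm2 (0.768).

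The ligands of TrkB were at very low counts. Bdnf, which DRG neurons make themselves, was split over identifiers like Ntrk2. NM_012513 of Bdnf had 7 to 37 reads and NM_001270633 had 4 to 21. NM_001270635 and NM_001270638 had 2 reads or fewer in every rat and were not tested. These counts hold only reads that lie on 1 identifier alone, so they do not give the level of Bdnf RNA in the ganglia. At this depth counting error alone is large. The log2 fold change of NM_012513 was 0.29 (SE 0.328, edgeR p = 0.391, exact permutation p = 0.297) in bPYX+NT3 against bPYX+GFP rats and -0.38 (SE 0.342, edgeR p = 0.290, exact permutation p = 0.288) in bPYX+GFP against naïve rats. Without rat 21, the latter was -0.71 and was called. Ntf4, which encodes NT-4, had 2.59 normalised reads or fewer in every rat and was not tested.

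Other genes of neurotrophin signalling were taken as 61 symbols, of which 5 had no counts, and 53 of their identifiers were tested in each comparison. In bPYX+GFP against naïve rats 1 was called higher and 4 lower, or 9.43% beside 3.25% of all identifiers and 0.733% of all called as higher. In bPYX+NT3 against naïve rats 1 was called higher and 2 lower, or 5.66% beside 6.01%. In bPYX+NT3 against bPYX+GFP rats 0 were called beside 1.73%, and 0 passed the adjustment in edgeR in any comparison. The median log2 fold change of the list was 0.0088, 0.016 and 0.015 in the 3 comparisons, beside 0.012, 0.00051 and 0.0049 over all identifiers tested. None of 5 tested genes of Trk trafficking, 5 identifiers of Trk partners in sensory neurons and 2 identifiers of other ligands was called.

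The listed genes called lower in an injured group than in naïve rats act at different steps. Pik3r1, the regulatory subunit of the PI3-kinase that Trk receptors recruit, had a mean of 2821 ± 168 normalised reads in naïve rats, 2537 ± 167 under bPYX+GFP and 2456 ± 241 under bPYX+NT3 (SD, n = 6). It was lower in both injured groups, with log2 fold changes of -0.15 in bPYX+GFP (edgeR p = 0.0223, exact permutation p = 0.0152) and -0.20 in bPYX+NT3 rats (edgeR p = 0.0134, exact permutation p = 0.0173). All 12 injured rats had fewer reads than the naïve median. Both comparisons share the naïve rats. The call in bPYX+NT3 rats held without each of the 12 rats, and that in bPYX+GFP rats was lost without rat 43 (-0.12). Pcsk5, a proprotein convertase that can cleave neurotrophin precursors, was lower too, at -0.25 in bPYX+GFP (edgeR p = 0.0202, exact permutation p = 0.0411) and -0.24 in bPYX+NT3 rats (edgeR p = 0.0263, exact permutation p = 0.0390), again with all 12 injured rats under the naïve median. Its call in bPYX+NT3 rats was lost without any of rats 43, 44, 49, 2 and 11, with log2 fold changes from -0.22 to -0.19.

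Called in bPYX+GFP against naïve rats, Adam17, the protease that sheds p75NTR from the cell surface, was at -0.29 (p = 0.0427, edgeR, exact permutation p = 0.0779), and Sorcs1, of the sortilin family, at -0.18 (p = 0.0336, exact permutation p = 0.0519). In bPYX+NT3 against naïve rats they were at -0.22 (exact permutation p = 0.145) and -0.16 (exact permutation p = 0.180). Between the injured groups they were at 0.076 (exact permutation p = 0.602) and 0.015 (exact permutation p = 0.937), so that a difference between the injured groups was not shown. The call of Adam17 was lost without any of rats 43, 44, 45, 49, 5, 15, 21 and 57, at -0.30 to -0.21, and that of Sorcs1 without any of rats 43, 49, 5, 21 and 57, at -0.16 to -0.12.

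Of 8 partners of p75NTR in signalling, 1 was called higher in each comparison with naïve rats and 0 between the injured groups. Of all identifiers, 0.733% were called higher in bPYX+GFP and 3.09% in bPYX+NT3 than in naïve rats. Between the injured groups 1.73% were called in either direction. Bex3, an adaptor that binds the intracellular part of p75NTR, had 1011 ± 50.7 normalised reads in naïve rats, 1094.5 ± 37 under bPYX+GFP and 1046 ± 48.3 under bPYX+NT3. It was higher by 0.12 in bPYX+GFP against naïve rats (p = 0.0271, edgeR, exact permutation p = 0.00649), and its value in bPYX+NT3 against naïve rats was 0.051 (exact permutation p = 0.238). Bex1, a related p75NTR binding protein, was higher by 0.22 in bPYX+NT3 against naïve rats (p = 0.0317, edgeR, exact permutation p = 0.0303), and its value in bPYX+GFP rats was 0.19 (exact permutation p = 0.145). The call of Bex3 was lost without any of rats 44, 49 and 15 (0.10 each), and that of Bex1 without any of rats 42, 44, 45, 49, 11, 23 and 40 (0.19 to 0.22).

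Between the injured groups, the smallest p in the list belonged to Ehd4, a trafficking protein of Trk endosomes, and Shc3, an adaptor of Trk receptors in neurons. Ehd4 was at 0.14 (p = 0.0552, edgeR, exact permutation p = 0.0476) and would be called without rat 23 or 40 (0.16 and 0.18). Shc3 was at 0.28 (p = 0.0801, edgeR, exact permutation p = 0.0238), with 38.1 to 45.3 normalised reads in bPYX+NT3 rats and 25.4 to 41.3 in bPYX+GFP rats. Each of the 6 bPYX+NT3 values of Shc3 exceeded the median of bPYX+GFP rats. Without rat 15 its value was 0.35 and was called.

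**Figure D5:**
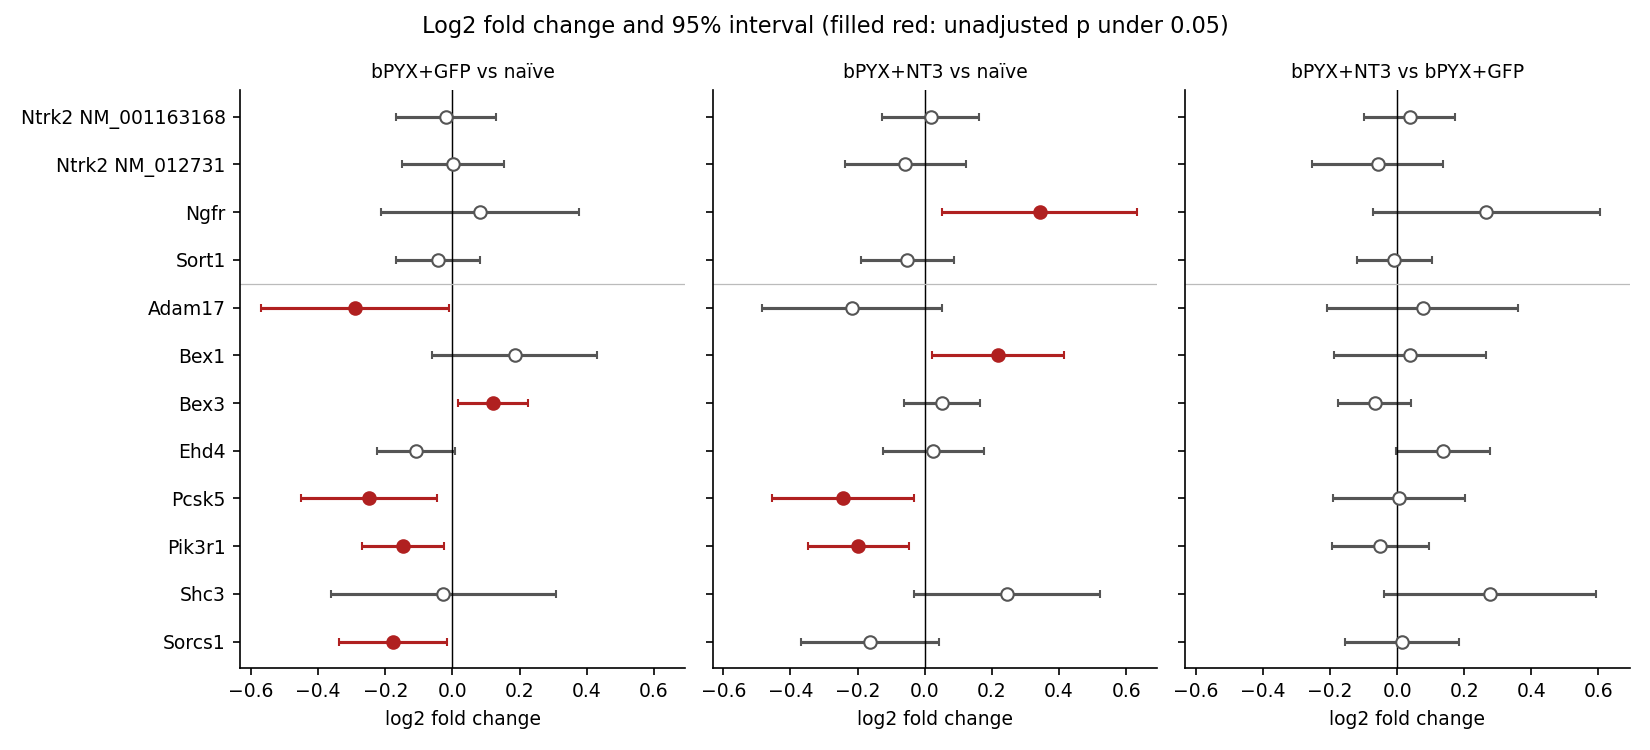
Log2 fold changes with 95% intervals of the 4 counted identifiers (above the grey line) and of the named genes of neurotrophin signalling, in the 3 comparisons of 6 against 6 rats, filled red where the unadjusted p was under 0.05. Ngfr, at 0.34, is the 1 receptor so marked, in bPYX+NT3 against naïve rats, and no gene is marked between the injured groups.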

How the data were processed

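Reads of 50 bp in pairs were aligned by the authors to Rnor_6.0 with TopHat2, stripped of duplicates with Picard and counted per RefSeq identifier with HTSeq, per the labels and the methods (bcl2fastq 1.8.4). The authors deposited raw whole-number counts, not normalised, for each rat and in a table of all rats. Read-pairs on no feature (30.8% to 34.6%), on several identifiers (2.79% to 3.41%) and not uniquely aligned (19.0% to 22.3%) stayed out of library sizes and tests. Columns were matched to groups by the sample description and rat number in the table heading. Titles attached to the rats' own files gave another grouping, which departs from the study's supplement for 17 of 18 rats and was run as an alternative.

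Comparisons of 6 against 6 rats used edgeR 4.0.16 in R 4.3.3 (TMM, quasi-likelihood test), on identifiers whose count exceeded 10 in 6 or more of 12 rats, with Benjamini-Hochberg adjustment over all of them. Calls are unadjusted p under 0.05, the rule of the study. SEs are the log2 fold change over the root of F. Exact permutation tests and correlations (100000 resamples) used log2 CPM with a prior count of 2. Normalised reads are counts over the TMM library size, times its mean over 18 rats. Intervals are 95%. Tests ran in Python 3.11.15 with scipy 1.17.1, tables in numpy 2.4.6 and pandas 2.3.3, plots in matplotlib 3.10.9. On simulated data for bPYX+GFP against naïve rats (11625 identifiers, log2 fold change 1), the test recovered 84.6% of changed genes after adjustment. With them passed 9 unchanged identifiers. By the unadjusted rule used for calls, 5.13% of unchanged identifiers had a p under 0.05 in the edgeR test. The simulated identifiers were drawn independently of each other, while many measured ones varied together, so these rates need not hold for the measured data. Recovery at smaller log2 fold changes was not tested.

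The genes, lists and alternatives were chosen with earlier results of these data known. Named were all genes of the set, listed genes called in any comparison, the 2 smallest p of the list in each comparison and, for each counted identifier, the 3 most correlated genes. Depth per rat limits precision to counting error at low counts. No gene lengths were used, so levels of different genes or identifiers were not compared. The share of Ntrk2 reads on NM_012731 was compared between rats only. Some listed genes are not reported here. No sequences are printed. Alternatives were the likelihood ratio test, DESeq2 1.42.0, other normalisations and filters, 1 fit over 3 groups, robust estimation, the no-feature share as covariate, a prior count of 0.5 and leaving out each rat. Those added after seeing the data were the replicate block, leaving out rats 11 and 57, summed Ntrk2 identifiers, correlations with the no-feature share and the share of Ntrk2 reads on NM_012731.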

Additional observations from a re-analysis of the deposited data

Results flagged for a closer look

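In 39 groups of 6 rats examined, 3 held a rat whose distance to its nearest neighbour took more of the whole range of the group than Dixon's critical ratio at 95%, which chance gives in about 1 of 20 groups. Rat 57 had 5872 normalised reads of Ngfr, where the next bPYX+GFP rat had 4236. Rat 11 had 1416 normalised reads of Sorcs1, where the next lowest bPYX+NT3 rat had 1914. The share of Ntrk2 reads on NM_012731 was 9.68% in naïve rat 43, where the next lowest naïve rat had 10.5%.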

How the results depend on the processing

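Ngfr was called between bPYX+NT3 and naïve rats (1 of 4 identifiers) under each alternative test, normalisation and filter and with the no-feature covariate, and not with the groups of the titles attached to the rats' own files (0, with or without their replicate block), nor without rats 11 and 57 (0). With single rats left out the number called was 0 or 1. For the injured groups that number was 1 without rats 11 and 57, and 0 or 1 with single rats left out. With the replicate numbers as a block, Ngfr was called at 0.33 (edgeR, adjusted p = 0.102) in bPYX+NT3 against naïve rats, and the block moved the identifiers called there from 703 to 2962 of 11693. In that comparison 5 of 6 same-numbered pairs had correlations of deviations over 0.1, from 0.286 to 0.534, and 1 was at -0.303. Of 12 rats, 5 correlated best with their own number. Over 0.1 were 2 of 6 pairs in bPYX+GFP against naïve and 3 of 6 between the injured groups. Whether same-numbered rats shared more than their number was not tested. Of the list genes, 2 in place of 5 were called in bPYX+GFP against naïve rats under the block (316 of all 11601 identifiers) and 16 in place of 3 in bPYX+NT3 against naïve rats. Without rats 11 and 57, 9 in place of 0 were called between the injured groups (1462 of all 11477). After adjustment 0 were called in each. Relations past the adjusted threshold numbered 5, and 2 without the 2 rats farthest out, 8 after centring on group means. The cause of these moves was not tested.

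Signs turned as follows. With the titles of the files, in the order bPYX+GFP against naïve, bPYX+NT3 against naïve and bPYX+NT3 against bPYX+GFP, Ngfr was at -0.15, -0.23 and -0.085 (block -0.11, -0.23 and -0.12) and Sort1 at 0.0028, 0.094 and 0.092 (block 0.0024, 0.093 and 0.091). NM_012731 was at 0.048 and 0.0304 in the last 2 (block 0.057 and 0.0301). In bPYX+GFP against naïve rats, Ngfr was at -0.053 without rats 11 and 57, and NM_012731 at -0.0066 by library size alone, -0.00029 with no filter and -0.00087 with the replicate block. NM_012731 was at 0.024 and 0.011 with the no-feature covariate in bPYX+NT3 against naïve and bPYX+GFP rats, and 0.0067 against naïve rats without rats 11 and 57. Sort1 between the injured groups was at 0.027 by library size alone and 0.032 without rats 11 and 57. With single rats left out, Ngfr ran from -0.053 to 0.13 in bPYX+GFP against naïve rats. In the 3 comparisons, NM_001163168 ran from -0.052 to 0.014, -0.011 to 0.046 and 0.0089 to 0.066, and NM_012731 from -0.051 to 0.032, -0.091 to 0.0067 and -0.092 to 0.0027. Sort1 ran from -0.031 to 0.016 between the injured groups. None of these values was called. At counts near 10 reads, depth limits what can be detected.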
